A study of Homo sapiens with 2 samples.

Results

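The genes described here are 9 DNA replication genes: MCM2, MCM3, MCM4, MCM5, MCM6, MCM7, MCM8, MCM10 and CDC45. They were taken by name, and their Rb peaks are the entries of the deposited peak lists whose summit, the base with the most tags, lay within 3 kb of the gene's start site in genome build hg19. All 9 genes had such a peak in both cell lines. The genes were chosen with earlier results of these data known, and the share of all genes with such a peak was not computed. The 9 genes account for 11 of 9423 peaks in VCaP and 11 of 21994 peaks in LNCaP, because some genes had 2 entries.

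Rb, the retinoblastoma tumour suppressor, was mapped by chromatin immunoprecipitation and sequencing (ChIP-seq) with a mouse monoclonal antibody in the prostate cancer cell lines VCaP, derived from a vertebral metastasis, and LNCaP, derived from a lymph node metastasis. Both lines express the androgen receptor. Cells of both lines, at passage 10 to 15, spent 3 days in 5% charcoal-stripped serum, which is poor in steroids, and then 4 h in 10 nM of the androgen dihydrotestosterone (DHT). Each line has 1 library, with 8691938 tags in VCaP and 3671482 in LNCaP, so the values of the lines are set side by side with no test. No untreated cells and no input chromatin were analysed here, and more cells with Rb at a site cannot be told apart from more Rb per cell.

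The MCM2 to MCM7 proteins form the ring-shaped helicase that is loaded onto replication origins in G1 phase and unwinds DNA in S phase. CDC45 joins the ring, together with the GINS complex, to make the active helicase, and MCM10 is needed for that activation. MCM8 is a relative that works with MCM9 in homologous recombination. Genes of the MCM2 to MCM7 ring are classical targets of E2F transcription factors, which Rb binds and restrains until cyclin-dependent kinases phosphorylate it, so that the genes are transcribed mainly from late G1 phase on.

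Promoter sequences of 6 of the genes are shown so that the E2F-type motifs near the starts can be read. They were picked, after the values were seen, to span the range of Rb fold enrichment: MCM6 was highest in both lines, CDC45 lowest in VCaP and MCM7 lowest in LNCaP. MCM8, whose motifs are given below, is not printed, and no relation between motifs and fold is drawn from so few promoters. Sequences are from RefSeq on build GRCh38.p14, read 5′ to 3′ along the gene from 250 bases before to 50 bases after the first start listed for the gene. Their coordinates are not on the build of the peaks. Capitals mark matches, on either strand, to the E2F motifs TTTCCCGC, TTTGGCGC, TTTCGCGC and TTTGCCGC or to the shorter E2F core GGCGGGA.
MCM6 promoter, chr2:135876394-135876693, minus strand: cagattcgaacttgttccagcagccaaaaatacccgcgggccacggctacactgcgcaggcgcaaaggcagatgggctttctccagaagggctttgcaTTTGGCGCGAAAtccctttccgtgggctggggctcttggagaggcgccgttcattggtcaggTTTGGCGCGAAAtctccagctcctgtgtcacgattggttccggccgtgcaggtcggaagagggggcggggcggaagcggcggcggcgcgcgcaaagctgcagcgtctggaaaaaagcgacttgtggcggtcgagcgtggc
MCM3 promoter, chr6:52284693-52284992, minus strand: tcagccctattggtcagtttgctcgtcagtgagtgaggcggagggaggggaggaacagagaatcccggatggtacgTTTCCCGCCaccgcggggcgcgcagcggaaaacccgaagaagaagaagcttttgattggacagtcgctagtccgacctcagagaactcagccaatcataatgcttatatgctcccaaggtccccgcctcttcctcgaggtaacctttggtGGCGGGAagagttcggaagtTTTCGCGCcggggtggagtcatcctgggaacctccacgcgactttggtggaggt
MCM2 promoter, chr3:127598161-127598460, plus strand: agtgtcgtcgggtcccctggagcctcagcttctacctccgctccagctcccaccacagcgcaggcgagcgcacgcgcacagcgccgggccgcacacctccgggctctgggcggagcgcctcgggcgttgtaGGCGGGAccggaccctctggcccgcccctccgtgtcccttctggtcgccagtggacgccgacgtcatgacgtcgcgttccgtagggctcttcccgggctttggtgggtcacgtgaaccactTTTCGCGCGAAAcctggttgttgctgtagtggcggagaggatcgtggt
MCM7 promoter, chr7:100101348-100101647, minus strand: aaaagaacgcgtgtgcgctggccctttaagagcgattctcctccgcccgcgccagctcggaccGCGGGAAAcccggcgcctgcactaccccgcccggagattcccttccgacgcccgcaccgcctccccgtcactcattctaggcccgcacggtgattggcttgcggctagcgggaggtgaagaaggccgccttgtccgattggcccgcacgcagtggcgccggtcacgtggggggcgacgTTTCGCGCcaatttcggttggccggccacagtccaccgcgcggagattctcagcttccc
MCM10 promoter, chr10:13161308-13161607, plus strand: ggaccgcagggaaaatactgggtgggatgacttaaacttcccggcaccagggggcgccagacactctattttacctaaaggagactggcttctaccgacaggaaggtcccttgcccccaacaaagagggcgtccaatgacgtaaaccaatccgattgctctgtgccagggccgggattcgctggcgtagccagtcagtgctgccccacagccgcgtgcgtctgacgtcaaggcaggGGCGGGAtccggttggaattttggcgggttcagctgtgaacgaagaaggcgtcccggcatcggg
CDC45 promoter, chr22:19479670-19479969, plus strand: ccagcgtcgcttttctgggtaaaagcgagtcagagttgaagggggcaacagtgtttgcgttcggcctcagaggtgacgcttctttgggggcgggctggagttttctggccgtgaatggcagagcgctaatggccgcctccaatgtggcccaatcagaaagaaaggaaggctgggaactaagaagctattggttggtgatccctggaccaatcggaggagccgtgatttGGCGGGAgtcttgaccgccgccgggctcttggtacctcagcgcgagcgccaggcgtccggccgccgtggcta

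At least 1 E2F-type motif was found in each of the 7 genes that matched the promoter table, which are all but MCM4 and MCM5. An 8-letter E2F motif was present in 5 of these 7 promoters (MCM2, MCM3, MCM6, MCM7 and MCM8), against 3.31% of all 35116 promoters in the table. Among the 13875 promoters with at least 21 CpG dinucleotides, the lowest count among the 7 genes, the share was 5.72%. The core GGCGGGA stood in 5 of the 7 (MCM2, MCM3, MCM8, MCM10 and CDC45), against 15.4% of all promoters and 30.1% of the CpG-rich ones. One or the other was present in 7 of 7, against 17.3% of all promoters and 33.2% of the CpG-rich ones. These counts take the first start of each gene, while the shares include every start in the table. Over all 11 listed starts of the 7 genes, 5 held an 8-letter motif, 6 the core and 8 one or the other. The core can overlap TTTCCCGC on the opposite strand, as it did in MCM3, and can overlap the GC box GGGCGG, as it did in MCM8 and MCM10. A match is a description of the letters and does not show that E2F or Rb sits there, and no match says only that the letters are absent from the window.

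The arrangement differed between genes. MCM6 held 2 copies of TTTGGCGCGAAA, in which TTTGGCGC and the reverse complement of TTTCGCGC share their middle letters, beginning 152 and 90 bp upstream of the start. MCM2 held TTTCGCGCGAAA, which reads the same on both strands, beginning 2 bp after the start. MCM3 had TTTCCCGC 174 bp upstream and TTTCGCGC 4 bp upstream, with a core 24 bp upstream. MCM7 likewise had TTTCGCGC 9 bp upstream and the reverse complement of TTTCCCGC 187 bp upstream. MCM8 had the reverse complement of TTTGGCGC 26 bp after its start and a core 215 bp upstream. MCM10 and CDC45 had only the core, 14 and 22 bp upstream.

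The CCAAT box, bound by the factor NF-Y, was present in 6 of 7 promoters (all but MCM2), against 34.6% of all promoters and 29.9% of the CpG-rich ones. The GC box GGGCGG, bound by Sp1-type factors, was present in 6 of 7 (all but MCM3), against 45% and 82.9%. TTTGAA, the letters of the CHR element of genes expressed in G2 and M phase, was present in none of the 7, against 15.2% and 5.73%. Over all 11 listed starts of the 7 genes, the CCAAT box was present at 9, the GC box at 10 and TTTGAA at 0. The 7 promoters had a median of 29 CpG dinucleotides and a median GC content of 62.3%, against 14 and 58.7% over all promoters. MCM7 and CDC45 each have 3 listed starts. None of the 4 E2F motifs was found at their other starts, and the core was found at 1 of them, the third start of MCM7.

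**Figure D1:**
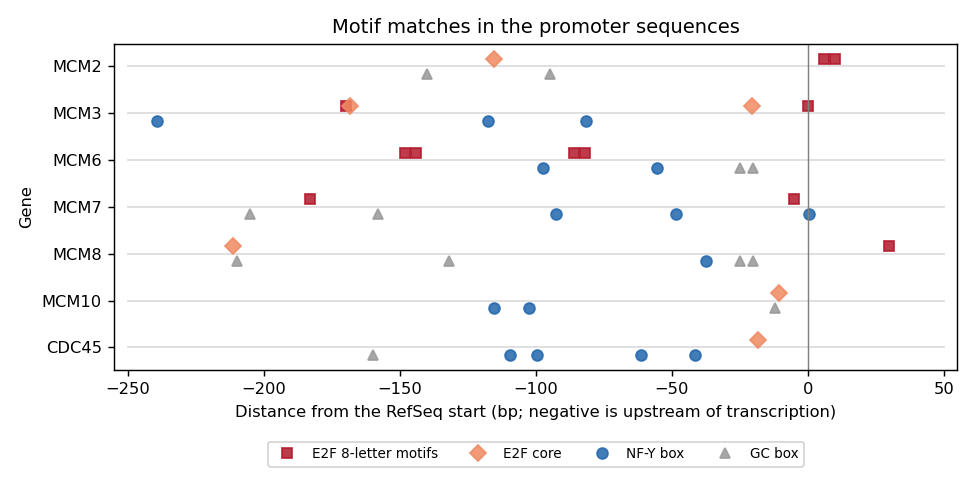
Position of motif matches in 7 promoters, in bp from the first listed RefSeq start, with upstream to the left. Squares are 8-letter E2F motifs, diamonds the E2F core, circles the NF-Y box and triangles the GC box. The 8-letter E2F motifs of MCM6 begin 152 to 86 bp upstream, while those of MCM2 begin 2 and 6 bp after the start.

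The strongest Rb peak of each gene ranked above the median of both lists, with MCM6 highest of the 9. Fold enrichment is the authors' ratio of tags at the summit plus 1 to the local background plus 1, within the same library. The added 1 lowers the fold most where the background is small. In VCaP the background was 1.215 tags at MCM10 and 5.805 at the stronger MCM4 peak. The order of the genes without the added 1 was not computed. The median over the 9 genes was 9.96 in VCaP, where all peaks had a median of 5.51, and 11.2 in LNCaP, where all peaks had 6.00. A fold of at least 10 was reached by 4 of the 9 genes in VCaP (MCM3, MCM4, MCM5 and MCM6), against 3.32% of all VCaP peaks. It was reached by 6 of the 9 in LNCaP (the same 4, MCM2 and MCM10), against 8.02% of all LNCaP peaks. The lowest of the 9 was CDC45 in VCaP, above 90.9% of the list, and MCM7 in LNCaP, above 77.01%. The median percentile rank was 96.6 in VCaP and 95.8 in LNCaP. These values use the strongest peak of each gene, and second peaks ranked lower by fold. They were above 10.5% (MCM4) and 31.0% (MCM7) of VCaP peaks, and above 69.7% (MCM4) and 54.7% (CDC45) of LNCaP peaks.

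**Figure D2:**
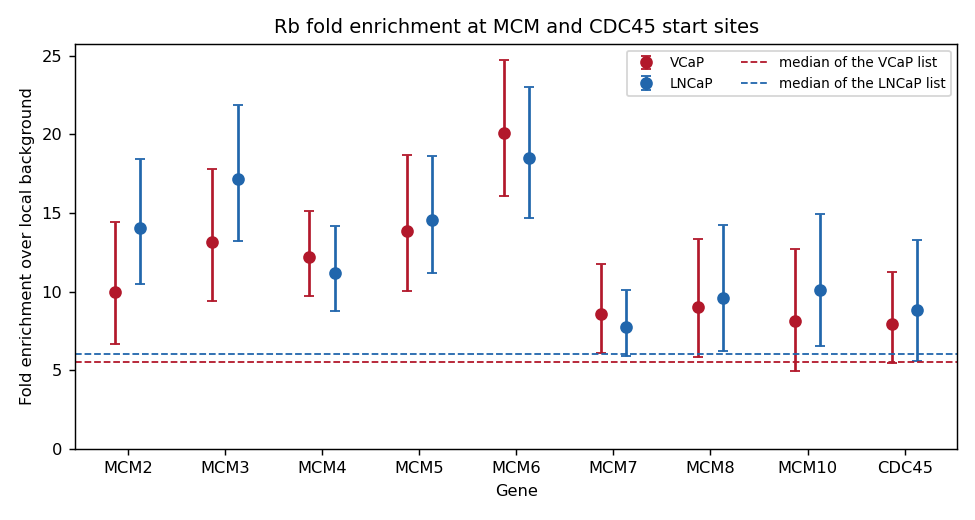
Fold enrichment over the local background (vertical axis) at the strongest peak of each gene, in VCaP (red) and LNCaP (blue). Points are the authors' values, bars are 95% Poisson intervals of the tags at the summit with the background held fixed, and dashed lines are the medians of all peaks. MCM6 is highest in both lines, at 20.07 in VCaP and 18.5 in LNCaP.

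The MCM6 promoter was among the most enriched sites of either line. MCM6 is a ring subunit, and its start site in the rule is at 136633996 on chromosome 2. Its VCaP peak, 136633814 to 136634298, had 85 tags at the summit, a fold of 20.07 and −log10 q of 81.4, and was number 6 of 9393 peaks on chromosomes 1 to 22 and X. Its LNCaP peak, 136633641 to 136634298, had 79 tags, a fold of 18.5 and −log10 q of 72.5, and was number 36 of 21955. Only 4 of the 6688 overlapping pairs of the lists, MCM6 included, had folds at least as high as these in both lines. The tags over the summit made up 58.2% of the tags in the surrounding 10 kb window in VCaP and 57.2% in LNCaP, the highest shares among the 9 genes. Its promoter holds TTTGGCGCGAAA in 2 copies, and a relation of motifs to fold was not tested.

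MCM3 and MCM5, which sit side by side in the ring, were also high in both lines. At MCM3 (start site 52149582 on chromosome 6) the summit held 39 tags with a fold of 13.1 in VCaP and 62 tags with a fold of 17.1 in LNCaP. At MCM5 (start site 35796116 on chromosome 22) it held 41 tags with a fold of 13.9 in VCaP and 61 tags with a fold of 14.6 in LNCaP. The 2 promoters were thus within 1 fold unit of each other in VCaP, while in LNCaP MCM3 was the higher by more, with overlapping counting intervals in both lines. The MCM3 interval was 52149434 to 52149895 in VCaP and 52149224 to 52149888 in LNCaP, and the MCM5 interval 35795759 to 35796232 in VCaP and 35795680 to 35796390 in LNCaP. MCM3 was above 98.97% of VCaP peaks and 99.7% of LNCaP peaks, and MCM5 above 99.2% and 99.1%. No other VCaP peak lay within 50 kb of the MCM3 start.

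MCM2, a ring subunit that also binds histones, had the largest gap in fold between the lines. At its start site (127317200 on chromosome 3) the summit held 26 tags with a fold of 9.96 in VCaP and 50 tags with a fold of 14.1 in LNCaP. The counting intervals of the folds, 6.64 to 14.4 in VCaP and 10.5 to 18.5 in LNCaP, overlapped. The peak ran from 127317021 to 127317555 in VCaP and from 127316861 to 127317541 in LNCaP. In the RefSeq gene table MCM2 adjoins TPRA1, on the opposite strand. Its rank was above 96.6% of VCaP peaks and 98.9% of LNCaP peaks.

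MCM4, a ring subunit, had 2 separate peaks in both lines and the largest local background of the 9 genes in VCaP. In the RefSeq gene table it adjoins, on the side of lower coordinates, PRKDC, which encodes the catalytic subunit of the DNA-dependent protein kinase used in DNA break repair. The stronger peak had its summit 242 bp below the start site of the rule, in coordinates, in VCaP, with 82 tags and a fold of 12.2. In LNCaP this summit was 226 bp below the start site, with 68 tags and a fold of 11.2. The weaker peak lay on the PRKDC side, with 29 tags and a fold of 4.38 in VCaP and 43 tags and a fold of 7.15 in LNCaP. The 2 summits were 622 bp apart in VCaP and 608 bp in LNCaP, with 131 and 155 bp between the intervals. The weaker peak had 0.354 times the tags of the stronger in VCaP and 0.632 times in LNCaP, and the exact 95% intervals of these ratios, 0.223 to 0.546 and 0.421 to 0.940, overlapped. The 10 kb window held 258 tags in VCaP, above 98.4% of all VCaP windows, and 214 tags in LNCaP, above 99.5%.

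MCM7, also a ring subunit, had the broadest peak and the lowest rank by fold in LNCaP, although its tag count was high. Its neighbour on the start side in the RefSeq gene table is AP4M1, on the opposite strand. VCaP had 2 peaks, with summits 400 and 1098 bp below the rule's start site (99699427 on chromosome 7) and folds of 8.60 and 5.003, from 37 and 21 tags. LNCaP had 1 peak of 1280 bp, longer than 99.8% of the LNCaP list, which spanned both VCaP intervals and had its summit 389 bp below the start site, with 54 tags and a fold of 7.78. The stronger VCaP interval was 99698816 to 99699309, and the LNCaP interval 99698073 to 99699352. MCM7 is read toward lower coordinates, so these summits lie downstream of that start site. The table lists further MCM7 starts 643 and 868 bp downstream of the first, and the rule's start was not matched to any of them. By tags at the summit the LNCaP peak was above 99.3% of the list, and by fold above 77.01%; its window held 252 tags, above 99.8% of windows.

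The 3 genes outside the ring had fewer tags at the summit than most ring genes, with folds between 7.94 and 10.1. At CDC45 (start site 19467414 on chromosome 22), next to UFD1 in the table, the summit lay 2 bp below the start site in VCaP and 4 bp above it in LNCaP. The VCaP peak had 30 tags and a fold of 7.94 and was 852 bp long, above 99.4% of VCaP peaks in length. LNCaP instead had 2 peaks, of 21 tags and a fold of 8.82 at the start site and of 15 tags and a fold of 6.18 on the UFD1 side, with summits 759 bp apart. The single VCaP interval, 19466677 to 19467528, overlapped both LNCaP intervals, 19466532 to 19466875 and 19467257 to 19467642. The counting intervals of the fold at the start site, 5.44 to 11.2 in VCaP and 5.61 to 13.3 in LNCaP, overlapped.

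At MCM10 (start site 13203554 on chromosome 10) the summit held 17 tags with a fold of 8.13 in VCaP and 23 tags with a fold of 10.1 in LNCaP. At MCM8 (start site 5931298 on chromosome 20), whose neighbour on the opposite strand is TRMT6, it held 23 tags in each library, with a fold of 9.01 in VCaP and 9.62 in LNCaP. The MCM10 interval was 13203241 to 13203825 in VCaP and 13203364 to 13203841 in LNCaP, and the MCM8 interval 5931183 to 5931497 in VCaP and 5930886 to 5931567 in LNCaP. The counting intervals of the fold overlapped between the lines at both genes, at MCM10 4.92 to 12.7 in VCaP and 6.56 to 14.96 in LNCaP. Tags at the summit of MCM8, MCM10 and CDC45 lay between 17 and 30 in VCaP and between 21 and 23 in LNCaP. Those of the 6 ring genes lay between 26 and 85 in VCaP and between 50 and 79 in LNCaP. In LNCaP the tags of the 2 groups thus did not overlap, while in VCaP CDC45 lay above MCM2. By tags, 21 and 23 ranked above 79.8% and 84.4% of the LNCaP list, and 50 above 99.1%. By fold the groups overlapped in both lines. The ring gene MCM7, at 8.60, was below MCM8 in VCaP and, at 7.78, below all 3 genes outside the ring in LNCaP.

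The order of the genes by fold was alike in the lines, with MCM6 first in both. From high to low it ran MCM6, MCM5, MCM3, MCM4, MCM2, MCM8, MCM7, MCM10 and CDC45 in VCaP. In LNCaP it ran MCM6, MCM3, MCM5, MCM2, MCM4, MCM10, MCM8, CDC45 and MCM7. Spearman's rho of fold between the lines was 0.88 over the 9 genes, a description, since the genes share the 2 libraries. No gene was separated from the next in the order by its counting interval, in either line. With the background held fixed, the 95% interval of MCM6 ran from 16.1 to 24.8 in VCaP and from 14.7 to 22.99 in LNCaP, above the whole interval of MCM7 in both (6.12 to 11.8 and 5.88 to 10.1).

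The strongest peaks of all 9 genes overlapped between the lines, and the ratio of fold between the lines varied among the genes. The genes' peaks were taken near the same start site in both lines, which favours overlap, and peaks over the lists were not. The overlap is thus no result about these genes. For 9 of 9 genes the strongest VCaP and LNCaP peaks overlapped, against 71.2% of all VCaP peaks with an overlapping LNCaP peak and 30.2% of all LNCaP peaks with an overlapping VCaP peak. Strong peaks are shared more often: among peaks with at least the lowest fold of the 9 genes, 88.8% of 859 in VCaP and 63.9% of 5047 in LNCaP were overlapped. The fold was higher in VCaP at 3 of the 9 genes, against 19.2% of all overlapping pairs and 21.5% of the 627 pairs in which both folds were at least the genes' lowest. The ratio of VCaP to LNCaP fold was 1.106 at MCM7, 1.088 at MCM4 and 1.085 at MCM6. It was lowest at MCM2, at 0.709, and at MCM3, at 0.766. Among all pairs these ratios stood at percentiles 87.8, 86.9 and 86.8 for MCM7, MCM4 and MCM6, and at 41.2 and 51.5 for MCM2 and MCM3. The median ratio over the 9 genes was 0.936, against 0.757 over all pairs (quartiles 0.619 and 0.939).

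**Figure D3:**
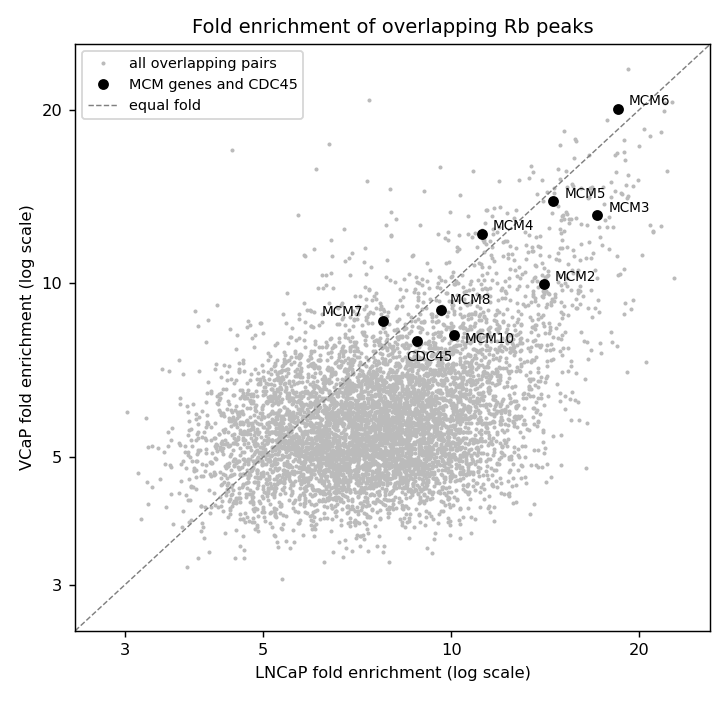
Fold enrichment in VCaP (vertical) against LNCaP (horizontal), both on log scales, for 6688 overlapping pairs of peaks (grey) and for the strongest peaks of the 9 genes (black). The dashed line marks equal fold. MCM4, MCM6 and MCM7 lie above it and the other 6 genes below.

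Scaled to library size, tags at the summit were lower in VCaP at all 9 genes, against 98.7% of all overlapping pairs. MCM6 had 9.78 tags per 1000000 library tags in VCaP and 21.5 in LNCaP, and MCM4 had 9.43 and 18.5. MCM2 had the lowest ratio, with 2.99 scaled tags in VCaP and 13.6 in LNCaP, a ratio of 0.220 (exact 95% interval 0.131 to 0.360). CDC45 had the highest, with 3.45 in VCaP and 5.72 in LNCaP, a ratio of 0.603 (0.334 to 1.109). At 8 of 9 genes the interval of the ratio lay below 1, CDC45 being the exception, against 82.2% of all overlapping pairs. The median ratio was 0.312 over the 9 genes and 0.298 over all overlapping pairs, so that the genes had the imbalance seen across the lists. These intervals cover counting error only and say nothing about the spread between cultures.

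**Figure D4:**
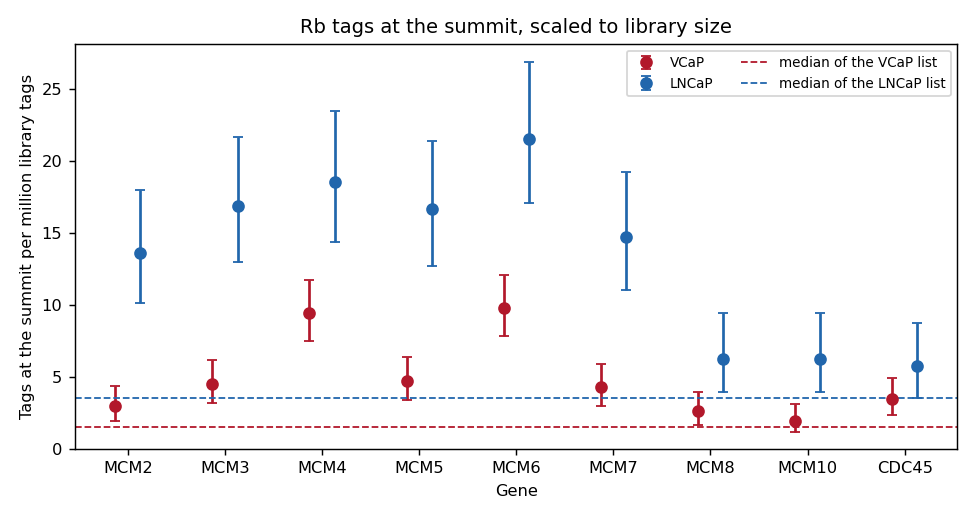
Tags at the summit per 1000000 library tags (vertical axis) for each gene in VCaP (red) and LNCaP (blue), with exact 95% Poisson intervals as bars and the medians of all peaks as dashed lines. VCaP lies below LNCaP at each of the 9 genes, from 1.96 to 9.78 against 5.72 to 21.5.

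The background around the genes moved with these values. The 10 kb windows of the 9 genes held a median of 91 tags in VCaP and 111 in LNCaP, against 68.0 and 51 over all peaks. After the same scaling, the ratio of VCaP to LNCaP windows was 0.255 at MCM7, 0.295 at MCM2, 0.447 at MCM6, 0.509 at MCM4 and 0.879 at CDC45, with a median of 0.400 over the 9 genes and 0.422 over all pairs. A window counts the peak's own tags too. With the local background subtracted from the tags at the summit, all 9 genes were still lower in VCaP, with ratios from 0.217 at MCM2 to 0.587 at CDC45 and a median of 0.308, against 0.290 over all pairs.

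Summits sat close to the start sites and, at most of the genes but not at MCM10 or MCM8, at nearly the same base in both lines. The summit of the strongest peak was a median of 107 bp from the start site in VCaP (2 to 400 bp) and 99 bp in LNCaP (1 to 389 bp). The interval covered the start site of the rule at 8 of 9 genes in each line, MCM7 being the exception. For MCM7 this holds for the rule's start only, which was not matched to any listed start. The peaks were taken for lying within 3 kb of these sites, and the share over all genes was not computed. The most distant summit counted was the second MCM7 peak in VCaP, 1098 bp away, and the nearest left out was at MCM2, 7329 bp away in VCaP (fold 6.68) and 7229 bp away in LNCaP (fold 5.95).

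Between the lines, the strongest summits were 5 bp apart at MCM6, 6 bp at CDC45, 7 bp at MCM3, 8 bp at MCM5, 11 bp at MCM7, 16 bp at MCM4 and 17 bp at MCM2. They were 41 bp apart at MCM8 and 181 bp at MCM10. At MCM10 the VCaP summit lay 132 bp below the start site and the LNCaP summit 49 bp above it. Thus 7 of 9 genes had summits at most 20 bp apart, a limit chosen after the values were seen, against 17.6% of all overlapping pairs and 32.1% of the 627 pairs of high fold. The median was 11 bp for the genes, 73 bp for all pairs and 43.5 bp for the 1580 pairs with at least the genes' lowest tag numbers.

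**Figure D5:**
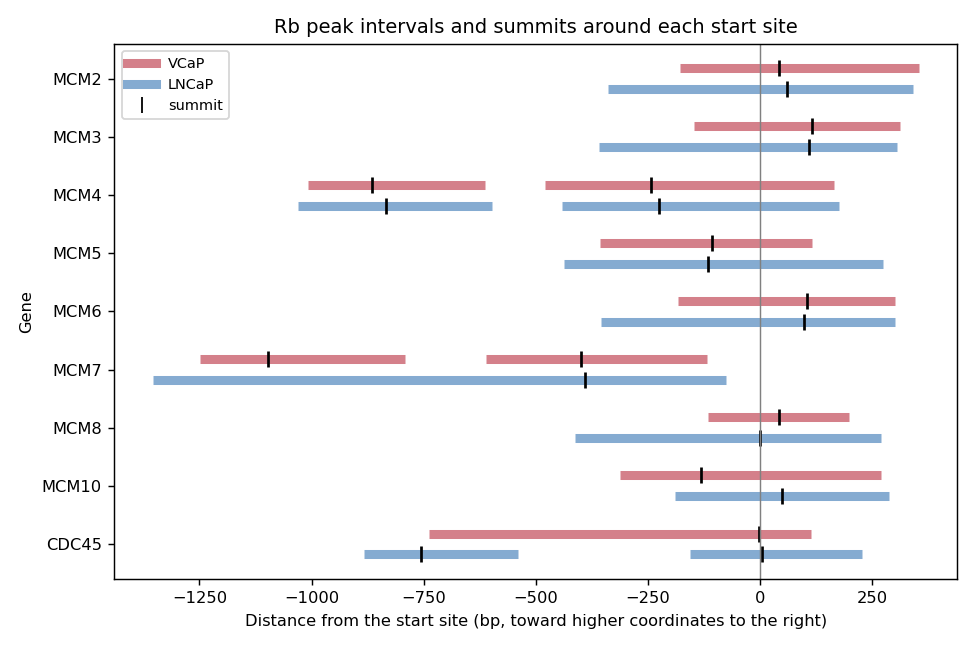
Peak intervals (bars) and summits (black ticks) in VCaP (red) and LNCaP (blue), in bp from each gene's start site, with higher coordinates to the right. Summits of the strongest peaks nearly coincide at 7 genes, MCM4 is split in both lines, MCM7 is split in VCaP and CDC45 in LNCaP.

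The median length of the 9 genes' strongest peaks was above that of each list. It was 494 bp in VCaP (315 to 852) and 665 bp in LNCaP (386 to 1280), against 313 and 395 bp over the lists. The CDC45 peak in LNCaP, at 386 bp, was shorter than the list's median, and the MCM8 peak in VCaP, at 315 bp, was close to it. The LNCaP interval was the longer at 6 of 9 genes, against 85.8% of all overlapping pairs. At MCM4, MCM10 and CDC45 the VCaP interval was the longer. Peaks within 50 kb of the start site numbered 1 to 5 per gene in VCaP and 1 to 8 in LNCaP, with the most at MCM7 in both lines. MCM6 had no other peak within 50 kb in either line, and MCM3, MCM8 and MCM10 had none in VCaP.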

How the data were processed

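Peaks were called by the authors with MACS version 2.1.0.20140616, 1 library at a time and with no control, at a q-value limit of 0.05 and with at most 1 tag per position, per the file headers. Pileup, as deposited, is a coverage signal: the unscaled number of extended tags over the summit. The deposited fold enrichment is a ratio of pileup plus 1 to local background plus 1, and the deposited significance is a −log10 q (or p) value of the authors' caller. Build hg19, MACS2 and HOMER are named in the submitters' processing notes; the aligner is not given in the sources used here. The summit files repeated the tables in all 9423 VCaP and 21994 LNCaP entries.

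Local background, and tags per 10 kb window, were computed back from pileup and fold; windows came out whole within 0.05 tags in 100% of peaks whose background was above the list's lowest. Where a gene had 2 peaks, the one of higher fold was used. Ranks, overlap (at least 1 bp, partner of highest fold) and shares used chromosomes 1 to 22 and X. Intervals are exact Poisson or conditional binomial at 95%, cover counting error only, and understate it, since a summit is a maximum. Overlap, rank, interval and motif code was tested on simulated data. All 9 genes are named by rule; adjoining genes (ends under 1 kb apart) are named from RefSeq, build GRCh38.p14 (PRKDC and UFD1, whose strand the table does not give, after their peaks were seen). No hg19 annotation was used, so other replication genes were not analysed here. Genes, motifs and lists were chosen with earlier results of these data known. Python 3.11.15, pandas 2.3.3 and SciPy 1.17.1 were used.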

Additional observations from a re-analysis of the deposited data

How the results depend on the processing

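The number of genes with a peak was 9 or 8 of 9 in both lines with summits within 500 bp, 1 kb or 5 kb, with the interval covering the start site, with −log10 q of at least 5 and with a fold of at least 5. With a fold of at least 10 it was 4 in VCaP and 6 in LNCaP. Summits were within 200 bp between the lines at 9 of 9. Most overlapping pairs also met this limit, since the upper quartile of the distance over all 6688 pairs was 155 bp. With reciprocal overlap of at least 50%, 6 of 9 genes had shared peaks, and the share over all pairs was not computed. The number of genes higher in VCaP depended on the scale: it was 0 by tags scaled to library size, 0 by scaled tags less the local background, and 6 by percentile rank within each list. The ratio of VCaP to LNCaP turned round on the first 2 of these scales at MCM4 (0.509 and 0.512), MCM6 (0.454 and 0.456) and MCM7 (0.289 and 0.296). With tags over each list's median it turned round at MCM7 (0.685) and CDC45 (1.43). The median percentile rank was 93.9 in VCaP among peaks with −log10 q of at least 5, and in LNCaP it was 99.3 by tags, 99.2 by −log10 q and 93.6 among peaks with −log10 q of at least 5. Ranks of single genes ran from 65.3 to 99.9 over these alternatives. The cause of these shifts was not tested. Taking the peak nearest the start site instead of the strongest changed no value. No paired analysis was possible because each line has 1 library. Precision is lowest where tags are fewest: MCM10, MCM8 and MCM2 in VCaP, with 17 to 26 tags, and CDC45, MCM8 and MCM10 in LNCaP, with 21 to 23.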
